A study of Saccharomyces cerevisiae with 24 samples.

Results

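The 34 transcripts described here encode proteins of the large subunit of the mitochondrial ribosome of budding yeast, and their genes carry MRPL names. They were chosen by gene name (MRPL1 to MRPL51), without use of any measured value, and are 34 of the 6685 transcripts in the table. The RefSeq annotation gives all 34 as mitochondrial ribosomal proteins of this subunit, of which 21 have a bacterial homologue and 13 are specific to mitochondrial ribosomes. All 34 passed the filter on low values (a mean of at least 1 TPM in at least 1 sample type), as did 6137 transcripts in all. A further 12 proteins of this subunit carry other names and form a list of their own.

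RNA-seq was performed on 24 libraries of strain BY4741, a haploid MATa laboratory strain in the S288c background that carries his3, leu2, met15 and ura3 deletions. Each of 4 biological replicates was a culture in synthetic complete medium, sampled unstressed at 30 °C and again after 20 min at 37 °C, the classic heat shock, which was reached by adding hot medium to the same culture. From every culture and treatment, 3 samples were taken so that RNA could be isolated by hot acid phenol followed by an RNeasy column (Phenol), by the silica column RNeasy kit after bead beating (RNeasy), or by the TRIzol-based Direct-zol kit after bead beating (Direct-zol). This gives 6 sample types with 4 libraries each. All libraries were made from polyA-enriched RNA in 1 batch and sequenced on 1 lane, so the lysis and extraction chemistry of a method cannot be told apart from it. The Phenol RNA passed over the same kind of column as the RNeasy samples, and RNA integrity was not analysed here. The paper reports that integrity was high throughout but differed by method, on average highest with Phenol and lowest with Direct-zol. With integrity in the paper's model, most calls between Phenol and Direct-zol were lost and most between Phenol and RNeasy stayed. Integrity cannot be told apart from the method here, and its part in the differences below was not tested. The table holds TPM, transcript abundances in parts of a fixed total per library, and gives no read counts, so depth is unknown here and no counting interval can be given. Levels below are scaled TPM, that is TPM divided by a factor of 0.776 to 1.27 that puts the libraries on a common scale. In such relative units, a change in total mRNA per cell or in the number of cells cannot be told apart from no change. Comparisons are log2 fold changes on log2(scaled TPM + 1) with their standard error (SE), and a transcript is called at an adjusted p (false discovery rate over all 6137 transcripts) under 0.01.

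The mitochondrial ribosome makes the few proteins that the mitochondrial genome still encodes, most of them membrane subunits of the respiratory chain and the ATP synthase. Nearly all of its own proteins are encoded in the nucleus, translated in the cytosol or at the mitochondrial surface and imported. In yeast, many of these mRNAs are bound by Puf3, a Pumilio family RNA-binding protein that recognises a short motif in their 3′ ends and acts on their stability, translation and localisation. The cytosolic ribosome has its own set of proteins, whose mRNAs are among the most abundant of the cell and fall sharply when yeast is heat shocked.

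The sequence feature that the MRPL transcripts shared was this motif. TGTANATA, searched on the sense strand, was found within 200 bases after the stop codon of 34 of 34 members (100%), against 810 of the 5974 other annotated ORFs (13.6%). The window of 100 bases held it in 30 members (88.2%, against 9.69% of the other ORFs). On the opposite strand of the same windows it was found for 6 members (17.6%, against 13.2%), and the AT content of those windows had a median of 69.5% in the members and 68.5% in the other ORFs. The 34 members held 42 sites, with 2 sites in 8 members and 1 site in 26, and the first site started a median of 47.5 bases after the stop codon (13 to 136). A C stood 2 bases before the motif in 28 of these 42 sites (66.7%), against 25.9% of the sites in other ORFs. The motif was as common in the other mitochondrial large subunit proteins (12 of 12) and the mitochondrial small subunit proteins (30 of 31, 96.8%). It was found in 9 of 13 mitochondrial translation and ribosome assembly factors (69.2%) and in 4 of 81 cytosolic large subunit proteins (4.94%). A match of these letters is a description and not a measured binding site.

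The sites of the members on which the results turn are shown in 30-base windows in the transcript's direction, 5′ to 3′, with the motif in capitals (RefSeq sequence of S288c, build R64). They include the members with the largest rise (MRPL28, MRPL16) and fall (MRPL37, MRPL20) after heat shock. Also shown are MRPL24, with the lowest mean difference between Phenol and the kits in unstressed cells, and MRPL19, the only member called higher in Phenol. MRPL49 and MRPL22 are the members whose first site lies nearest to and farthest from the stop codon.
MRPL28, first site, chrIV:1386537-1386566, plus strand: ctgtctcctgcTGTAAATAactgatgatca
MRPL28, second site, chrIV:1386593-1386622, plus strand: atataattataTGTACATAgacatataaag
MRPL16, chrII:146900-146929, plus strand: ccatgtatacaTGTATATAactattgaaaa
MRPL37, chrII:741638-741667, plus strand: tttggtatcctTGTAAATAaatatgtgtgt
MRPL20, chrXI:599049-599078, minus strand: aataacaatcgTGTAAATActactctataa
MRPL24, first site, chrXIII:650856-650885, plus strand: tggttttccccTGTATATAaaaaagcatat
MRPL24, second site, chrXIII:650880-650909, plus strand: gcatatctgttTGTACATAtgtaggtatgc
MRPL19, first site, chrXIV:292088-292117, minus strand: ctgatctattcTGTAAATAtgtatataagt
MRPL19, second site, chrXIV:292080-292109, minus strand: ttctgtaaataTGTATATAagttttaaatt
MRPL49, first site, chrX:246977-247006, plus strand: ttttagggataTGTACATAtacgcatacgt
MRPL22, chrXIV:303532-303561, minus strand: tattgtgattcTGTAAATAacaactagttt
The C 2 bases before the motif stands in MRPL16, MRPL37, MRPL20 and the first MRPL24 site, and other letters stand there in the MRPL28, MRPL19 and MRPL22 sites. The windows of the MRPL19 sites overlap each other. Of the 42 sites, 16 were spelled TGTAAATA, 15 TGTATATA, 10 TGTACATA and 1, in MRPL3, TGTAGATA.

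In the 250 bases before the start codon, no motif searched was shared in this way. CCAAT, the letters bound by the Hap complex that drives respiratory genes, was found on either strand for 9 of 34 members (26.5%) and for 35.4% of all 6008 ORFs. The stress response element AGGGG was found for 3 members (8.82%, against 18.8%) and the paired heat shock element GAANNTTC for 3 (8.82%, against 9.92%). Of the 2 motifs typical of ribosome biogenesis genes, GCGATGAG (PAC) was found for 1 member (2.94%, against 3.83%) and AAAATTTT (the core of RRPE) for 0 (against 8.66%). The members' ORFs were short, with a median of 616 bases (213 to 1173) against 1203 in the other ORFs, and their median GC content was 39.9% (36.2 to 48.7) against 39.8%.

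The members were expressed at similar, moderate levels in unstressed cells. Their mean scaled TPM over the 12 unstressed libraries ran from 44.8 in MRPL40, a protein at the exit of the peptide tunnel, to 168 in MRPL51, a 3.75-fold range with a median of 75.2. In 33 of 34 members the level was above the median of all transcripts tested (47.2), and the mitochondrial small subunit transcripts had a like median (72.03). The cytosolic large subunit transcripts had a median of 2066. MRPL36 and MRPL19 followed MRPL51 from the top, at means of 147 and 140, and MRPL24 followed MRPL40 from the bottom, at 48.0.

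MRPL51 (YPR100W), chromosome XVI, 729791 to 730213, was at 123, 142, 130.2 and 160.4 scaled TPM in the unstressed Phenol libraries of replicates 1 to 4, at 196, 186, 179.9 and 200 with RNeasy and at 185, 176, 156 and 182 with Direct-zol. MRPL40 (YPL173W), chromosome XVI, 223143 to 224036, was at 32.7, 33.01, 40.8 and 34.98, 45.3, 51.01, 42.9 and 45.2, and 54.3, 52.8, 53.03 and 51.2 in the same order of methods. The highest MRPL40 library lay far below the lowest MRPL51 library, while MRPL51, MRPL36 and MRPL19 overlapped each other across methods. For MRPL36 (YBR122C), a homologue of bacterial bL31, the 12 values were 123, 125, 134 and 128 with Phenol, 153, 164, 165 and 149 with RNeasy and 166, 167, 148 and 139 with Direct-zol. The MRPL51 ORF overlaps YPR099C on the opposite strand and the MRPL19 ORF overlaps YNL184C on the same strand, each pair sharing stretches of read length, so their levels are less certain. The overlapping transcripts were low, at 3.68 to 24.7 (YPR099C) and 1.44 to 20.2 (YNL184C) scaled TPM over all libraries.

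In sum the 34 transcripts held a small share of each library. Before scaling, they made up 0.206% ± 0.012 of all TPM (SD, n = 4) in unstressed Phenol libraries, 0.301% ± 0.00537 with RNeasy and 0.281% ± 0.0105 with Direct-zol. After heat shock these shares were 0.268% ± 0.00951, 0.395% ± 0.026 and 0.379% ± 0.0127. In each method, all 4 heat shock libraries lay above all 4 unstressed libraries. The cytosolic large subunit transcripts moved the other way, from 14% ± 1.29 to 2.37% ± 0.642 with Phenol, from 15.6% ± 0.201 to 2.56% ± 0.996 with RNeasy and from 17.1% ± 0.126 to 2.89% ± 1.24 with Direct-zol. Because TPM are parts of a fixed sum, a fall of that size raises the share of the others, and the part of this in the rise of the MRPL share was not tested. The heat-shocked libraries of replicate 1 held the most cytosolic large subunit RNA with every method (3.09, 3.94 and 4.66%) and those of replicate 3 the least (1.53, 1.56 and 1.79%).

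The heat shock comparison asks how transcript levels change within each method. The MRPL transcripts changed little. With Phenol, 10 of 34 rose and 1 fell, where 31.1% of all transcripts tested were called higher and 32.8% lower. With RNeasy 8 rose and 0 fell (31.3% and 32.1% of all tested), and with Direct-zol 9 rose and 2 fell (31.7% and 32.1%). In shares of the members, 29.4, 23.5 and 26.5% rose, near the background or somewhat below it, and 2.94, 0 and 5.88% fell, where about as many of all transcripts tested fell as rose. The median log2 fold change of the members was 0.18, 0.11 and 0.12 with the 3 methods, beside 0.00, 0.01 and 0.02 over all transcripts tested, and the quartiles of all tested lay at −0.51 and 0.52 with Phenol. No member moved by more than 0.58 in either direction with any method, and 20 of 34 members were called with none of them, against 28.9% of all tested.

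**Figure D1:**
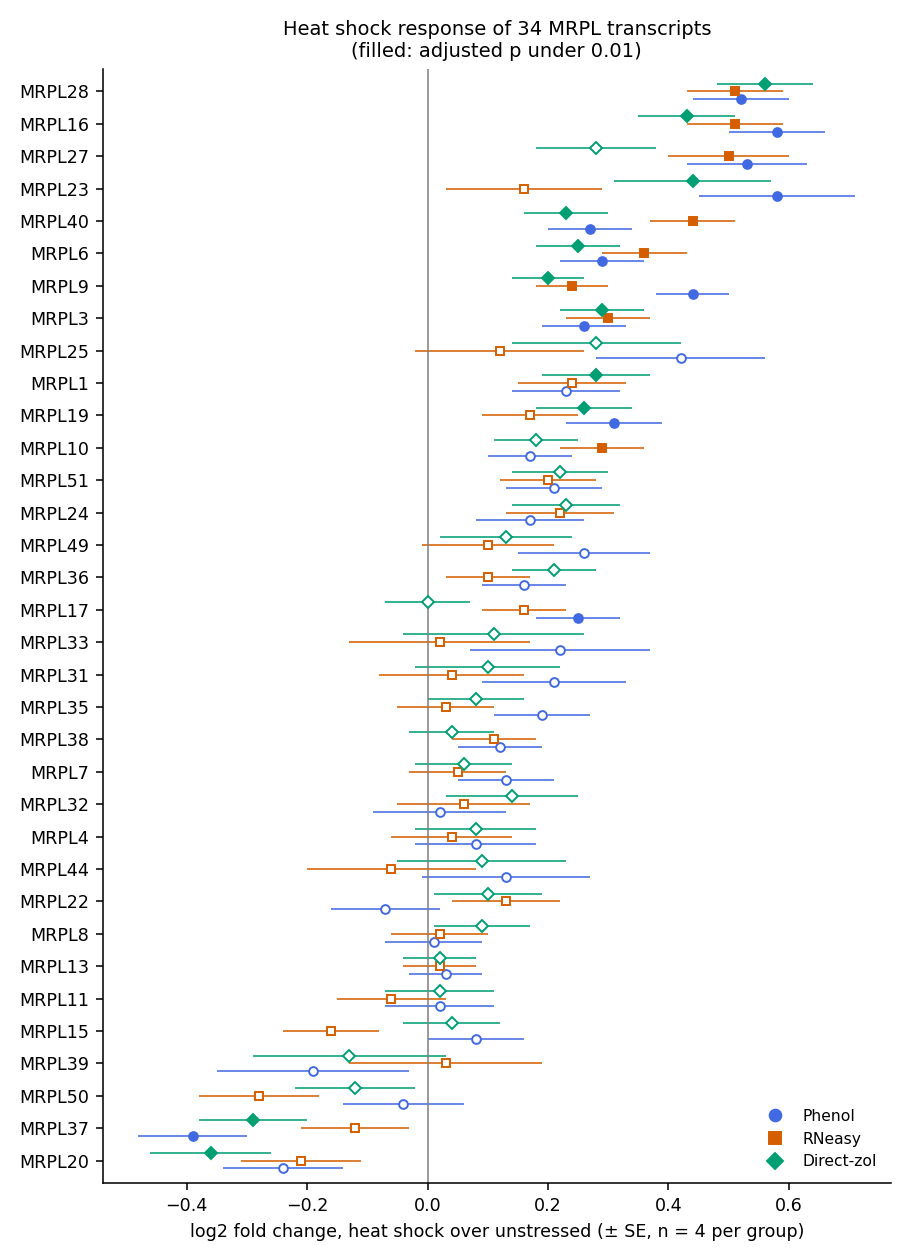
Log2 fold change after 20 min at 37 °C (x axis, ± SE, 4 libraries per group) for each of the 34 MRPL transcripts (rows), with circles for Phenol, squares for RNeasy and diamonds for Direct-zol. Filled symbols are calls, and the values run from −0.39 (MRPL37, Phenol) to 0.58 (MRPL16 and MRPL23, Phenol), with most open symbols close to 0.

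Calls came from proteins of several roles. Rising with all 3 methods were 6 of 34 members, where 27.5% of all transcripts tested were called higher with all 3. With 2 methods 3 more rose (MRPL19, MRPL23 and MRPL27) and with 1 method another 3 (MRPL1, MRPL10 and MRPL17). Calls with 2 methods or 1 were counted for the members only, without a share over all transcripts tested. The 6 that rose with all 3 methods were MRPL3, MRPL6, MRPL9, MRPL16, MRPL28 and MRPL40. Of these, MRPL6, MRPL9, MRPL16 and MRPL40 are homologues of bacterial uL6, uL3, uL16 and uL24, and MRPL3 and MRPL28 are specific to mitochondria. Both falling members, MRPL20 and MRPL37, are also specific to mitochondria. Among the 21 members with a bacterial homologue, 6, 5 and 7 rose with Phenol, RNeasy and Direct-zol, with medians of 0.17, 0.11 and 0.14. Among the 13 others, 4, 3 and 2 rose and 1, 0 and 2 fell, with medians of 0.21, 0.04 and 0.09. Without replicate 1 or 4 the count called with Phenol was 7 or 6 in place of 11, and without replicate 2, 3 or 4 the count with Direct-zol was 4, 6 or 3 in place of 11. Over all transcripts tested, the same fits called 3701 or 3471 in place of 3921 with Phenol. With Direct-zol they called 3562, 3575 or 3434 in place of 3911. Calls held with each of the replicates left out for 5 of the 10 risers with Phenol, 5 of 8 with RNeasy and 2 of 9 with Direct-zol, which was also counted for the members only.

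MRPL28 (YDR462W, chromosome IV, 1386073 to 1386516) encodes a mitochondrion-specific protein of the central protuberance, the crown of the subunit that faces the small subunit. With Phenol it was at 62.99, 57.7, 55.8 and 57.97 scaled TPM in unstressed replicates 1 to 4 and at 99.3, 78.4, 81.7 and 79.8 after heat shock. With RNeasy it went from 61.5, 67.7, 67.6 and 69.7 to 99.6, 99.3, 83.3 and 98.7, and with Direct-zol from 67.3, 81.7, 70.9 and 62.7 to 108, 106, 95.99 and 106. All heat shock libraries lay above all unstressed libraries of their method. The log2 fold changes were 0.52 ± 0.08, 0.51 ± 0.08 and 0.56 ± 0.08 (SE, n = 4; adjusted p = 1.1e-05, 1.5e-05 and 4.6e-06), or 1.42- to 1.47-fold, and they were called in every alternative analysis.

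MRPL16 (YBL038W, chromosome II, 146187 to 146885), the uL16 homologue that in bacteria lies close to the peptidyl transferase centre, rose by as much. Unstressed Phenol libraries held 52.95, 53.1, 61.5 and 43.96 scaled TPM and heat shock libraries 75.8, 75.7, 87.2 and 78.8. The RNeasy values were 71.2, 79.4, 68.4 and 69.7 before and 105, 106, 96.9 and 105 after, and the Direct-zol values 75.3, 75.04, 75.9 and 75.6 before and 94.9, 112, 93.01 and 110.2 after. The groups did not overlap with any method, and the unstressed Direct-zol libraries were nearly identical to each other. Its log2 fold changes were 0.58 ± 0.08, 0.51 ± 0.08 and 0.43 ± 0.08 (adjusted p = 3.8e-06, 1.9e-05 and 0.00013), also called in every alternative.

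MRPL27 and MRPL23 were next by mean response, each called with 2 methods. MRPL27 (YBR282W), specific to mitochondria, was at 41.3, 47.1, 61.96 and 48.2 and then 62.1, 76.1, 69.3 and 79.6 with Phenol, at 72.4, 68.5, 69.8 and 62.4 and then 94.5, 101, 104 and 87.98 with RNeasy, and at 90.1, 83.1, 85.2 and 75.6 and then 91.4, 107, 98.96 and 108 with Direct-zol. Its groups did not overlap, and its log2 fold changes were 0.53 ± 0.10, 0.50 ± 0.10 and 0.28 ± 0.10, with an adjusted p of 0.016 for the last. MRPL23 (YOR150W), the homologue of uL13, an early assembling protein in bacteria, went from 88.6, 83.4, 72.6 and 58.5 to 129, 103, 114 and 104 with Phenol and from 104, 100.3, 99.2 and 65.1 to 118, 127, 116 and 135 with Direct-zol, without overlap. With RNeasy its groups overlapped, at 78.3, 91.6, 81.6 and 89.8 before and 94.3, 113, 79.3 and 96.3 after heat shock. The 3 log2 fold changes of MRPL23 were 0.58 ± 0.13, 0.16 ± 0.13 and 0.44 ± 0.13 (adjusted p = 0.00057, 0.29 and 0.0048), and the Direct-zol call was lost without replicate 2 or 4 (adjusted p = 0.017 and 0.059).

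MRPL40, MRPL6, MRPL9 and MRPL3 completed the group that rose with all 3 methods. MRPL40, the uL24 homologue, had log2 fold changes of 0.27 ± 0.07, 0.44 ± 0.07 and 0.23 ± 0.07, and its heat shock libraries were at 40.7, 46.1, 41.5 and 42.8 with Phenol, 67.8, 60.5, 66.3 and 56.9 with RNeasy and 63.98, 64.8, 57.6 and 63.1 with Direct-zol. Against the unstressed values given above, the lowest Phenol heat shock library fell just under the highest unstressed one, and the kit libraries did not overlap. MRPL3 (YMR024W), a mitochondrion-specific protein related to ribonuclease III, was at 78.6, 75.7, 63.6 and 65.8 and then 98.9, 80.8, 82.7 and 77.4 with Phenol, at 62.8, 60.4, 68.7 and 66.4 and then 81.1, 80.04, 79.03 and 77.8 with RNeasy, and at 71.9, 76.5, 66.95 and 71.1 and then 87.7, 92.99, 86.6 and 83.5 with Direct-zol. Its rise was of similar size with the 3 methods, at 0.26 ± 0.07, 0.30 ± 0.07 and 0.29 ± 0.07, and only the Phenol libraries overlapped. MRPL6 rose by 0.29 ± 0.07, 0.36 ± 0.07 and 0.25 ± 0.07 and MRPL9 by 0.44 ± 0.06, 0.24 ± 0.06 and 0.20 ± 0.06 on the log2 scale. Leaving out 1 replicate ended at least 1 of the 3 calls of each of these 4 members, with the highest adjusted p at 0.067 (MRPL40), 0.03 (MRPL3), 0.064 (MRPL6) and 0.091 (MRPL9).

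The 2 members that fell did so by little. MRPL37 (YBR268W, chromosome II, 741299 to 741616), a small mitochondrion-specific protein, was at 104, 103, 92.9 and 123 scaled TPM in unstressed and at 79.2, 79.95, 80.2 and 79.98 in heat-shocked Phenol libraries. With Direct-zol it went from 132, 134, 119 and 134 to 119, 99.2, 98.96 and 107, and with RNeasy from 110.5, 104, 115 and 109 to 129, 81.9, 102 and 96.2. The heat shock libraries lay below the unstressed ones with Phenol and Direct-zol, while those of RNeasy spread over both sides. Its log2 fold changes were −0.39 ± 0.09 with Phenol, −0.12 ± 0.09 with RNeasy and −0.29 ± 0.09 with Direct-zol (adjusted p = 0.00084, 0.27 and 0.0081). The Phenol call was lost without replicate 4 (adjusted p = 0.023), the Direct-zol call without replicate 2, 3 or 4 (0.049, 0.025 and 0.038), and TPM without scaling put the Direct-zol value at 0.01.

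MRPL20 (YKR085C, chromosome XI, 599094 to 599681), another mitochondrion-specific protein, was called lower after heat shock with Direct-zol only. There it went from 95.2, 98.7, 84.3 and 88.5 to 72.8, 72.8, 66.1 and 72.5, without overlap. It was at 57.6, 56.7, 77.05 and 62.8 and then 47.9, 48.9, 58.3 and 58.99 with Phenol and at 72.8, 69.7, 70.96 and 78.2 and then 68.6, 68.3, 54.2 and 60.9 with RNeasy. The RNeasy groups did not overlap either, while the Phenol groups did. Every heat shock library was below the unstressed library of its replicate, and the log2 fold changes of −0.24 ± 0.10, −0.21 ± 0.10 and −0.36 ± 0.10 had adjusted p of 0.038, 0.063 and 0.0031. Without replicate 1, 2 or 4 the Direct-zol call was lost (0.015, 0.02 and 0.016). MRPL50 (YNR022C), the homologue of bacterial bL9, and MRPL39 (YML009C), that of bL33, were the next lowest and were not called, at −0.04 ± 0.10, −0.28 ± 0.10 and −0.12 ± 0.10 and at −0.19 ± 0.16, 0.03 ± 0.16 and −0.13 ± 0.16. MRPL39, the shortest ORF of the set at 213 bases, had the widest error of all, with unstressed Phenol libraries at 64.1, 103, 92.3 and 124 and heat shock Phenol libraries at 74.2, 80.9, 77.5 and 94.7. Its RNeasy libraries were at 103, 83.1, 78.8 and 103 and then 93.4, 72.95, 118 and 94.6, and its Direct-zol libraries at 119, 97.9, 103 and 118 and then 132, 83.6, 84.1 and 106, so that its groups overlapped with every method.

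**Figure D2:**
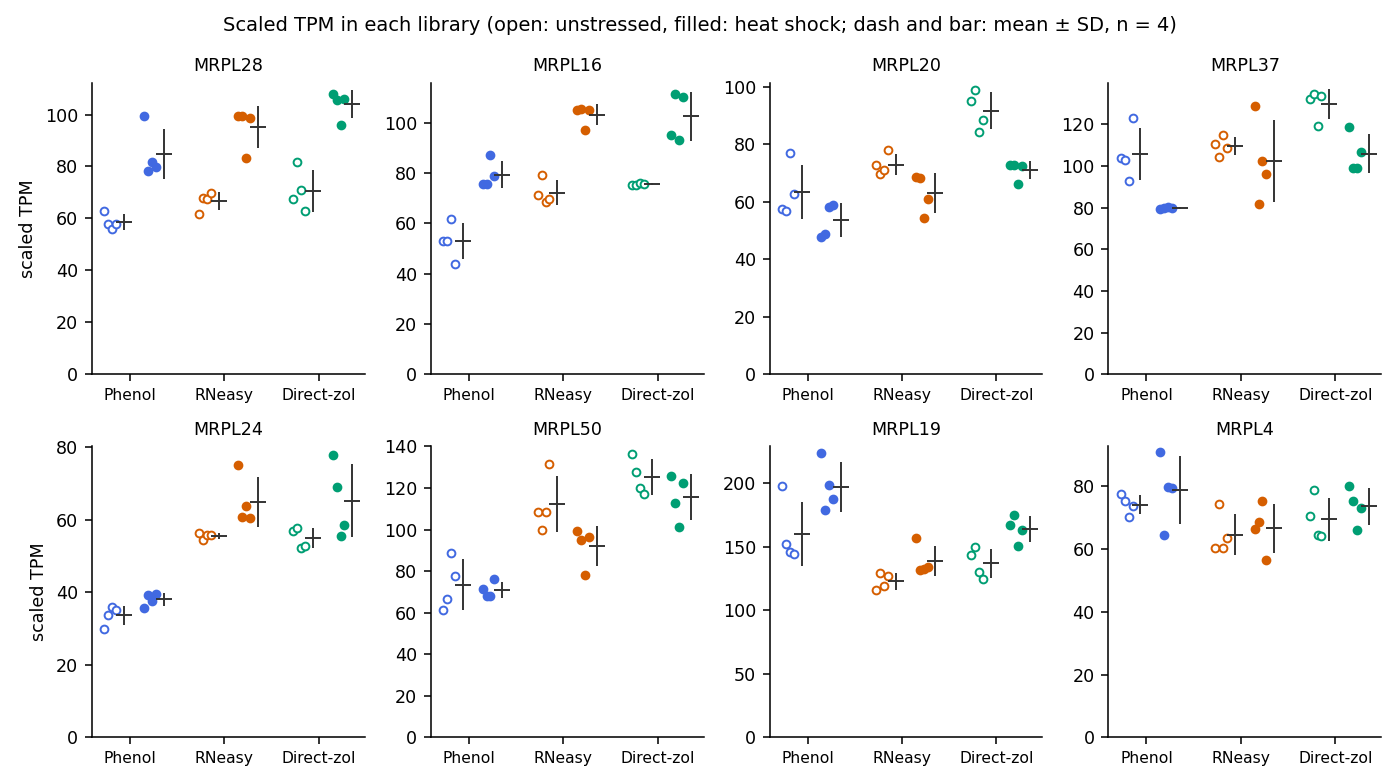
Scaled TPM of 8 MRPL transcripts (y axis, from 0) in each of the 24 libraries, by method, with open symbols for unstressed and filled symbols for heat-shocked cells and a dash and bar for the mean ± SD (n = 4). MRPL28 and MRPL16 are higher after heat shock with every method, MRPL20 and MRPL37 are lower or overlap, MRPL24 and MRPL50 are lower in Phenol than in the kits, and MRPL19 and MRPL4 are not.

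The remaining members moved little. In all, 26 of 34 had a positive log2 fold change with all 3 methods and 3 (MRPL20, MRPL37 and MRPL50) a negative one with all 3. Signs shared by all 3 methods were counted for the members only, without a share over all transcripts tested. With Phenol, RNeasy and Direct-zol taken singly, 29, 28 and 30 members were positive, beside 3061, 3112 and 3121 of all 6137 transcripts tested. MRPL11, the uL10 homologue that carries the stalk, was at 0.02 ± 0.09, −0.06 ± 0.09 and 0.02 ± 0.09, and MRPL13 at 0.03 ± 0.06, 0.02 ± 0.06 and 0.02 ± 0.06 with Phenol, RNeasy and Direct-zol, close to 0 throughout. MRPL25 (YGR076C), specific to mitochondria, had the highest value without a call, 0.42 ± 0.14 with Phenol (adjusted p = 0.014), beside 0.12 ± 0.14 and 0.28 ± 0.14 with the kits. MRPL32, known in yeast as a substrate that the m-AAA protease of the inner membrane must cleave before the ribosome can assemble, was at 0.02 ± 0.11, 0.06 ± 0.11 and 0.14 ± 0.11. The 8 members with 2 Puf3 motifs had medians of 0.24, 0.19 and 0.25 with Phenol, RNeasy and Direct-zol, and the 26 with 1 motif had 0.13, 0.06 and 0.09, values given without a test. In the 805 other tested ORFs with the motif the medians were 0.08, 0.10 and 0.10, and in the 4924 without it −0.04, −0.01 and −0.02.

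The scaling matters for the size of these responses. With TPM taken as deposited, 24, 22 and 28 members were called with Phenol, RNeasy and Direct-zol, all of them higher, and the medians were 0.38, 0.37 and 0.42. The median of all transcripts tested then moved to 0.19, 0.26 and 0.29, which left the members 0.19, 0.11 and 0.13 above it, against 0.19, 0.10 and 0.10 with scaling.

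The other mitochondrial ribosome transcripts also rose in part and hardly fell. Of 31 mitochondrial small subunit transcripts, 10, 8 and 11 rose and 0, 1 and 0 fell with Phenol, RNeasy and Direct-zol, with medians of 0.11, 0.12 and 0.14, from RSM19 at 0.42 to 0.63 to RSM26 at −0.40 to −0.02. Of the 12 other large subunit transcripts, 3, 3 and 4 rose and 0 fell with each method, with medians of 0.20, 0.21 and 0.23, from MRP49 at 0.46 to 0.61 to MNP1, the homologue of the bacterial stalk protein bL12, at −0.18 to 0.03. The 13 translation and assembly factors had higher medians, at 0.41, 0.27 and 0.34, and 9, 7 and 8 of them rose, with MEF2, a mitochondrial elongation factor G that acts in ribosome recycling, at 1.34 to 1.45, and MRM1, a methyltransferase of the large mitochondrial rRNA, at −0.04 to 0.09. The cytosolic large subunit was the contrast: 78, 80 and 80 of 81 transcripts fell, with medians of −2.90, −3.01 and −3.03. RPL9A was lowest at −4.10 to −3.80, and RPL15B alone rose, at 0.83 to 0.99. Transcripts of the mitochondrial genome were not analysed here.

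**Figure D3:**
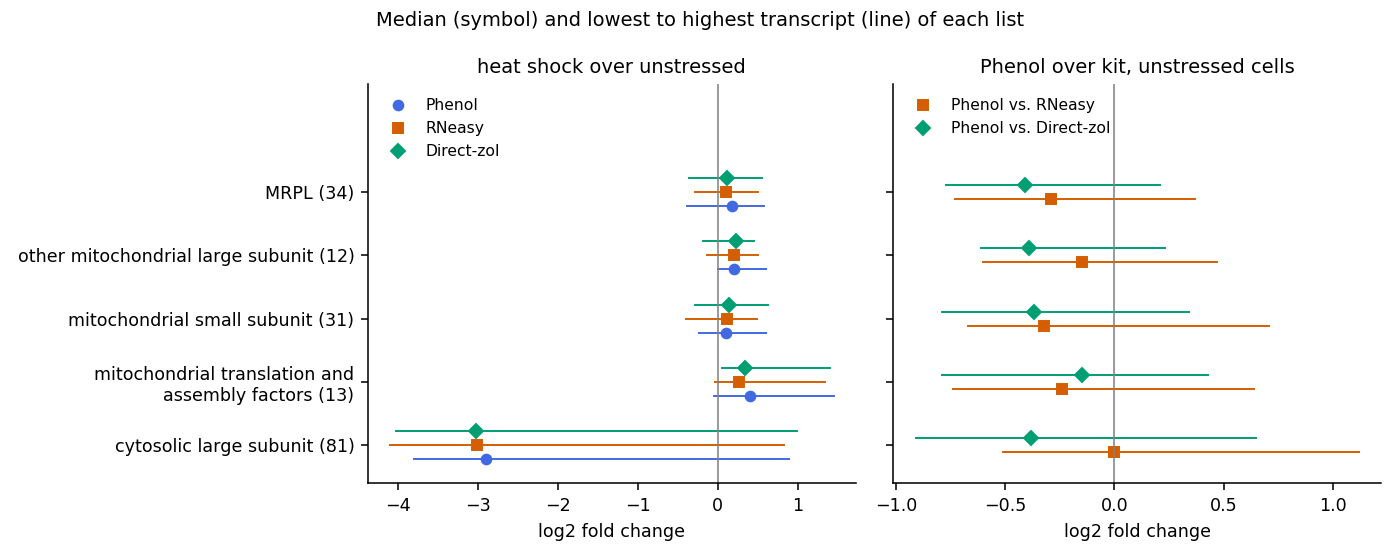
Median (symbol) and lowest to highest transcript (line) of the log2 fold change in 5 gene lists (rows, number of transcripts in parentheses), for heat shock with each method (left) and for Phenol over each kit in unstressed cells (right). The 4 mitochondrial lists have heat shock medians of 0.11 to 0.41, whereas the cytosolic large subunit has medians of −3.03 to −2.90.

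The second question is how the method itself shifts these transcripts. In unstressed cells most MRPL transcripts were lower in Phenol than in the kits. Against RNeasy 18 of 34 were lower and 1, MRPL19, was higher, where 19.8% of all transcripts tested were lower and 22.1% higher. Against Direct-zol 23 were lower and 0 higher (21.6% and 22.9% of all tested). The median log2 fold change of the members was −0.29 against RNeasy and −0.41 against Direct-zol, beside −0.01 and −0.02 over all transcripts tested. These comparisons share the Phenol libraries. All 4 unstressed Phenol libraries lay below all 4 RNeasy libraries for 18 members and below all 4 Direct-zol libraries for 22. This separation was counted for the members only, so no share over all transcripts tested can be set beside it. Without replicate 1, 2 or 4 the count called against RNeasy was 11, 10 or 12 in place of 19, and without replicate 2 the count against Direct-zol was 14 in place of 23. Over all transcripts tested, these counts were 2059, 2153 or 1989 in place of 2568, and 2142 in place of 2730. With TPM as deposited, 29 members were lower than with RNeasy and 0 higher, with a median of −0.58, where the median of all transcripts tested moved to −0.28. In that setting 2606 of all 6137 transcripts tested were called lower than with RNeasy and 735 higher.

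After heat shock the order of the methods was the same. Phenol was lower than RNeasy for 13 members and higher for 1, again MRPL19 (21.1% and 22.6% of all tested), and lower than Direct-zol for 22 and higher for 0 (20.8% and 21.8%). The medians were −0.24 and −0.33, beside 0.00 and −0.03 over all tested, and all 4 Phenol libraries lay below all 4 RNeasy libraries for 13 members and below all 4 Direct-zol libraries for 24. In both treatments, 11 members were lower in Phenol than RNeasy and 20 lower in Phenol than Direct-zol. The separations of libraries and the calls in both treatments were counted for the members only, without a share over all transcripts tested. The count against RNeasy was 9 without replicate 1, and that against Direct-zol was 12 without replicate 2 and 13 without replicate 4. Over all transcripts tested, the count against RNeasy was 2240 without replicate 1, in place of 2680. That against Direct-zol was 2194 without replicate 2 and 1998 without replicate 4, in place of 2617.

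**Figure D4:**
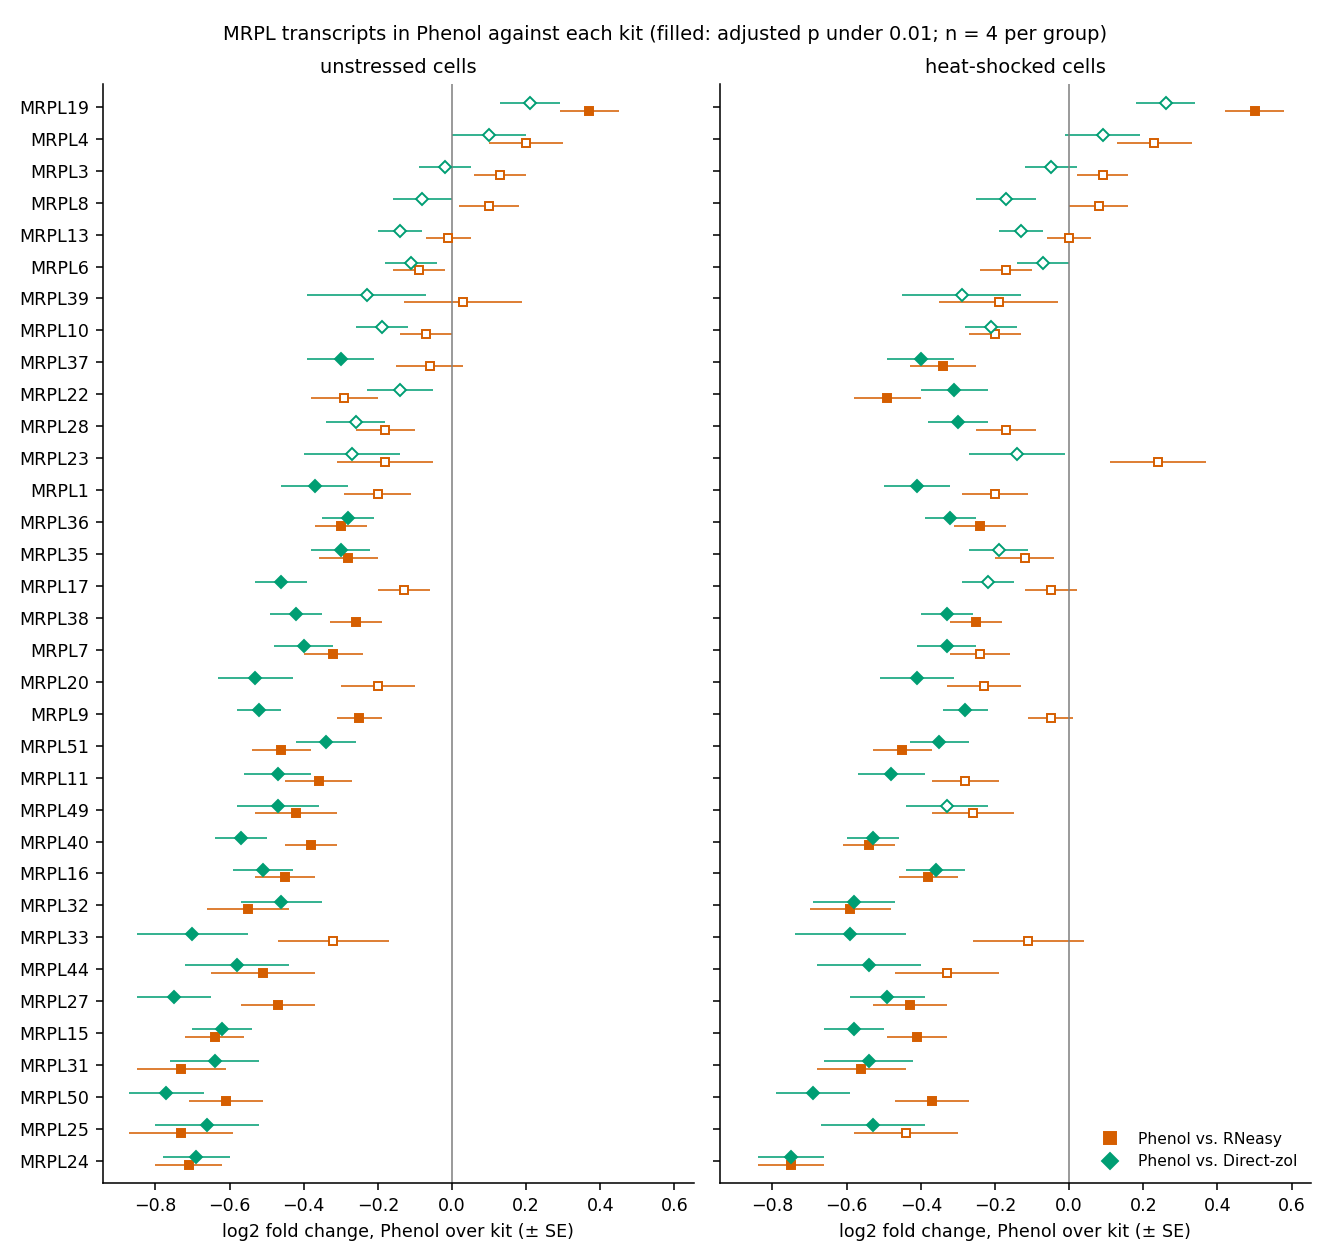
Log2 fold change of Phenol over RNeasy (squares) and over Direct-zol (diamonds) for the 34 MRPL transcripts (rows, in order of the mean in unstressed cells), ± SE with 4 libraries per group, in unstressed (left) and heat-shocked cells (right). Filled symbols are calls, most rows lie left of 0 in both panels, from −0.77 (MRPL50, Direct-zol) to 0.50 (MRPL19, RNeasy).

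MRPL24 (YMR193W, chromosome XIII, 650036 to 650812), the bL28 homologue, had the lowest mean difference between Phenol and the kits. Its unstressed libraries held 29.9, 33.7, 35.9 and 35.1 scaled TPM with Phenol, 56.2, 54.5, 55.6 and 55.8 with RNeasy and 56.9, 57.6, 52.1 and 52.8 with Direct-zol, and its heat shock libraries 35.6, 39.3, 37.6 and 39.6, 74.9, 60.8, 63.6 and 60.3 and 77.8, 68.9, 55.6 and 58.6. Every Phenol library, heat-shocked or not, lay below every kit library. The log2 fold changes were −0.71 ± 0.09 against RNeasy and −0.69 ± 0.09 against Direct-zol in unstressed cells (adjusted p = 2.2e-06 and 3.1e-06), or 0.61- and 0.62-fold, and −0.75 ± 0.09 against each after heat shock. All of these calls held in every alternative, as did those of MRPL15, another mitochondrion-specific relative of ribonuclease III, at −0.64 ± 0.08 and −0.62 ± 0.08 in unstressed cells.

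MRPL25, MRPL50 and MRPL31 were nearly as low in Phenol. MRPL50 was at 61.2, 66.4, 88.9 and 77.8 in unstressed Phenol libraries, at 108, 100, 109 and 132 with RNeasy and at 136, 128, 119.9 and 117 with Direct-zol, without overlap, and its log2 fold changes were −0.61 ± 0.10 and −0.77 ± 0.10. After heat shock it was at 71.3, 67.95, 68.04 and 76.3, 99.1, 95.05, 78.2 and 96.5 and 126, 113, 101 and 122, again without overlap between Phenol and the kits. MRPL31 (YKL138C), specific to mitochondria, was at 80.8, 93.1, 88.6 and 75.3 with Phenol, 156, 142, 131 and 133 with RNeasy and 146, 135, 148 and 104 with Direct-zol in unstressed cells. The corresponding heat shock values of MRPL31 were 93.4, 111, 83.6 and 104, 156, 149, 109 and 170.1 and 129, 162, 131 and 147, and its unstressed log2 fold changes were −0.73 ± 0.12 and −0.64 ± 0.12. Phenol and kit libraries of MRPL31 overlapped only after heat shock against RNeasy.

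MRPL25, for which the replicates spread more, was at 28.4, 31.2, 48.03 and 37.1 with Phenol, at 64.1, 59.3, 56.4 and 59.05 with RNeasy and at 63.1, 46.2, 55.5 and 63.8 with Direct-zol in unstressed cells. One Phenol library overlapped the lowest Direct-zol library, and the log2 fold changes were −0.73 ± 0.14 and −0.66 ± 0.14 (adjusted p = 0.00026 and 0.00067). After heat shock the values were 52.6, 50.6, 43.3 and 44.96, 80.5, 63.3, 49.8 and 70.8 and 80.3, 62.1, 68.5 and 67.1, and only the difference from Direct-zol was called. Without replicate 1 or 4 the unstressed call against Direct-zol was lost for MRPL25 (adjusted p = 0.012 and 0.013), and without replicate 1, 2 or 4 the heat shock one (0.013, 0.012 and 0.038).

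At the other end of the order by mean difference between Phenol and the kits in unstressed cells were MRPL19, MRPL4, MRPL3 and MRPL8. MRPL19 (YNL185C, chromosome XIV, 292193 to 292669), the uL11 homologue at the base of the stalk where translation factors bind, was at 198, 152, 146 and 145 in unstressed Phenol libraries, at 116, 129.5, 119 and 127 with RNeasy and at 144, 149.6, 129.9 and 125 with Direct-zol. After heat shock it was at 224, 179, 199 and 188, 157, 132, 133 and 134 and 167, 175, 150.4 and 163. All Phenol libraries lay above all RNeasy libraries of their treatment, with log2 fold changes of 0.37 ± 0.08 and 0.50 ± 0.08 (adjusted p = 0.00076 and 3.3e-05). The unstressed call was lost without replicate 1 (adjusted p = 0.016), whose Phenol library was the highest, and TPM as deposited gave 0.07 and 0.15 (adjusted p = 0.44 and 0.11). The differences from Direct-zol, 0.21 ± 0.08 and 0.26 ± 0.08, were not called.

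MRPL4 (YLR439W), the uL29 homologue at the tunnel exit, held 77.3, 75.01, 70.05 and 73.6 in unstressed Phenol libraries, 60.2, 74.2, 60.1 and 63.5 with RNeasy and 70.5, 78.6, 64.4 and 64.1 with Direct-zol. Its heat shock libraries were at 90.8, 64.5, 79.6 and 79.4, 66.2, 68.3, 75.2 and 56.4 and 79.8, 75.1, 65.98 and 72.8, the groups overlapped throughout, and no comparison was called, with unstressed log2 fold changes of 0.20 ± 0.10 and 0.10 ± 0.10. MRPL8 (YJL063C) was at 88.4, 88.9, 90.9 and 104, 90.5, 88.4, 90.3 and 78.9 and 95.5, 105, 93.8 and 101 in unstressed Phenol, RNeasy and Direct-zol libraries and at 98.7, 87.96, 95.9 and 91.9, 98.8, 87.3, 91.2 and 77.8 and 118, 109.5, 93.7 and 100.5 after heat shock, also overlapping, with log2 fold changes of 0.10 ± 0.08 against RNeasy and −0.08 ± 0.08 against Direct-zol in unstressed cells and 0.08 ± 0.08 and −0.17 ± 0.08 after heat shock, none of them called. MRPL3, whose values stand above, had unstressed differences of 0.13 ± 0.07 and −0.02 ± 0.07 from the kits. Of the other tunnel exit proteins, MRPL40 had log2 fold changes of −0.38 ± 0.07 and −0.57 ± 0.07 in unstressed cells, both called. MRPL22, the uL22 homologue, was at −0.29 ± 0.09 and −0.14 ± 0.09 in unstressed cells, not called, and at −0.49 ± 0.09 and −0.31 ± 0.09 in heat-shocked cells, both called, where the call against Direct-zol was lost without replicate 2, 3 or 4 (adjusted p = 0.029, 0.021 and 0.086).

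The kits differed from each other for 1 member. MRPL17 (YNL252C, chromosome XIV, 171441 to 172286), a mitochondrion-specific protein of the central protuberance, was lower in unstressed RNeasy libraries (56.3, 63.8, 61.8 and 55.3) than in Direct-zol libraries (76.7, 78.4, 72.1 and 72.8), with a log2 fold change of −0.34 ± 0.07 (adjusted p = 0.0038). The groups did not overlap, and Phenol libraries were at 56.1, 56.3, 58.7 and 46.04. With any 1 replicate left out the call was lost (adjusted p = 0.065, 0.029, 0.018 and 0.02). Over all transcripts tested, 0.961% were lower and 2.93% higher in RNeasy than Direct-zol in unstressed cells. After heat shock 0 members were called (0.75% of all tested lower and 3.68% higher). An unadjusted p under 0.05 in limma was then found for 11 of 34 members and for 1553 of all 6137 transcripts tested. MRPL17 was then at 64.6, 61.1, 63.6 and 68.3 with Phenol, 71.4, 64.2, 66.2 and 64.1 with RNeasy and 77.9, 73.8, 71.6 and 77.1 with Direct-zol. The medians of the members were −0.11 and −0.10 in unstressed and heat-shocked cells, beside −0.02 and −0.03 over all tested, and with TPM as deposited they were 0.09 and 0.06, beside 0.16 and 0.12 over all tested.

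GC content ran along with the difference between Phenol and the kits, and also with that between the kits. Across the 34 members, Pearson's r between the GC content of the ORF and the log2 fold change of Phenol over RNeasy was 0.623 in unstressed and 0.511 in heat-shocked cells (Spearman's rho 0.611 and 0.512). For Phenol over Direct-zol it was 0.454 and 0.39 (rho 0.389 and 0.307). Over the 5763 tested transcripts with an ORF, the same r values were 0.361, 0.425, 0.183 and 0.219. For RNeasy over Direct-zol, r in the members was −0.422 in unstressed and −0.353 in heat-shocked cells (rho −0.531 and −0.483). Over the 5763 transcripts it was −0.3 and −0.369 (rho −0.45 and −0.532). The points are genes measured in the same libraries and not independent replicates, so these are descriptions without a test. MRPL24 had the lowest GC content (36.2%), and MRPL8 and MRPL4 the highest (48.7% and 47.7%). For the log2 length of the ORF, r was 0.176 and 0.125 against RNeasy in unstressed and heat-shocked cells (rho 0.273 and 0.222) and 0.283 and 0.292 against Direct-zol (rho 0.348 and 0.395). Over all 5763 transcripts the length values were 0.115 and 0.0548 against RNeasy and 0.302 and 0.254 against Direct-zol, the latter above those for GC content. Neither property had an r beyond −0.272 (GC content, Phenol) with the heat shock response.

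**Figure D5:**
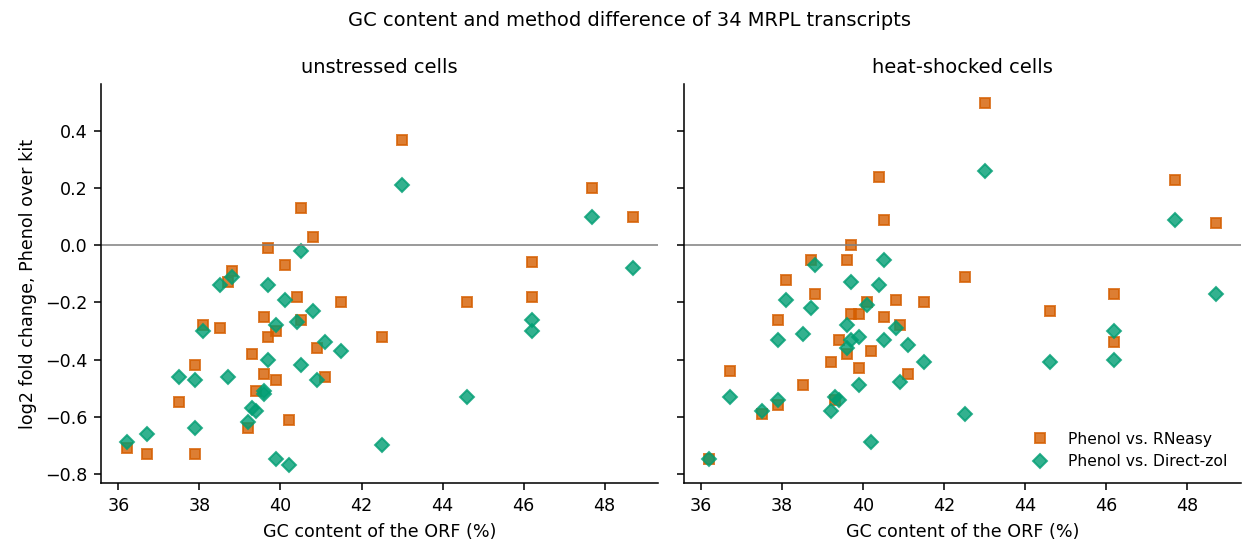
GC content of the ORF (x axis, percent) and log2 fold change of Phenol over RNeasy (squares) or Direct-zol (diamonds) (y axis) for the 34 MRPL transcripts in unstressed (left) and heat-shocked cells (right). Values tend to be lower at lower GC content, with wide scatter, and r is 0.623 and 0.454 in unstressed cells and 0.511 and 0.39 after heat shock.

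Other mitochondrial ribosome transcripts shifted in the same direction with the method. In unstressed cells, 17 of 31 small subunit transcripts were lower in Phenol than RNeasy and 3 higher, and 20 were lower than Direct-zol and 1 higher, with medians of −0.32 and −0.37. The other large subunit transcripts had medians of −0.15 and −0.39 and the translation and assembly factors −0.24 and −0.15. Cytosolic large subunit transcripts had medians of 0.00 against RNeasy and −0.38 against Direct-zol, with 0 and 4 of 81 called lower and 8 and 2 higher. Their median SE was 0.23, against 0.08 for the MRPL transcripts, so a shift of like size was called less often. The 8 members with 2 Puf3 motifs had medians of −0.25 and −0.32 against RNeasy and Direct-zol, the 26 with 1 motif −0.29 and −0.44, and the 805 other ORFs with the motif −0.09 and −0.11. Puf3 itself, Tom20 (a receptor of the import machinery of the outer membrane, which anchors mRNAs there with Puf3) and Cox17 (a copper chaperone of cytochrome oxidase and a well studied Puf3 target) formed a list of 3. After heat shock COX17 rose, with log2 fold changes of 0.76 to 0.99, and TOM20 fell, with −0.56 to −0.42, with all 3 methods, while PUF3 lay between −0.03 and 0.05 and was not called.

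Although levels differed between methods, no difference between their heat shock responses was called. The difference between responses was called for 0 of 34 members and for 0% of all 6137 transcripts in each of the 3 pairs of methods by limma. At an unadjusted p under 0.05 there were 4 members for Phenol minus RNeasy, 2 for Phenol minus Direct-zol and 0 for RNeasy minus Direct-zol. Of all 6137 transcripts tested, 267, 270 and 69 were under it in the same order. The largest difference among these members was in MRPL23, at 0.42 ± 0.18 (unadjusted p = 0.035, adjusted p = 0.99), and MRPL37 was at −0.28 ± 0.13. The median differences of the members were 0.03, 0.04 and −0.03, and their sign changed between alternatives. With standard errors of this size, differences in response as large as that of MRPL23 could not be told from 0, so equal responses are not shown. The members' replicates varied by a median coefficient of variation of 5.37% (RNeasy unstressed) to 10.7% (Phenol unstressed), and the SE of a heat shock log2 fold change was 0.06 to 0.16, with a median of 0.08.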

How the data were processed

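RNA-seq was performed on 24 yeast libraries (6 sample types of 4 biological replicates). According to the study's methods, the authors trimmed reads with Trimmomatic, aligned them with STAR and estimated abundance with RSEM; the labels name build sacCer3 (R64). The deposited values analysed are TPM per transcript, estimated by the authors; they are not counts, so depth per library is unknown here and count models were not used. A deposited table of the authors' own fold changes and p-values was not used. Whether counting used strand is not given in the sources used here.

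TPM were divided by a trimmed mean factor per library (30% of log ratios and 5% of abundances trimmed at each end, against the mean library). Of 6685 transcripts, 548 below a mean of 1 TPM in every sample type were left out. Log2(scaled TPM + 1, the pseudocount) was fitted with limma 3.58.1 (R 4.3.3) by sample type and biological replicate, after the study's design. P-values were two-sided and Benjamini-Hochberg adjusted over 6137 transcripts, with a threshold of 0.01. Fold changes on this scale understate changes of low transcripts. The fit was run on simulated data in which few transcripts changed, in heat-shocked Phenol libraries only, with a replicate effect shared across treatments. Many more transcripts were called in the real data, so that run does not show how the fit behaves there. Sequence features, counts and figures used Python 3.11.15, pandas 2.3.3, numpy 2.4.6, scipy 1.17.1 and matplotlib 3.10.9, with RefSeq sequence and annotation of build R64.

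Replicates were separate cultures and equal numbers mark samples of 1 culture, as the study's methods state. Deviations from the sample type means correlated at a mean r of 0.192 between libraries of the same number and treatment (24 pairs, −0.305 to 0.588), at 0.007 for the same number in the other treatment and at −0.063 for other numbers in the same treatment. For other numbers in the other treatment it was −0.003, so across treatments equal numbers did not stand out.

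Values in every library are given for the 4 members highest and the 4 lowest by mean heat shock response and by mean difference between Phenol and the kits. They are also given for the 2 lowest in level and any called between the kits or between responses. For the 2 highest in level, MRPL51 and MRPL36, only the unstressed libraries are given in full. Of each other list, the highest and lowest by mean heat shock response are named. Other members are named as calls or for their role, with their values known. The members were chosen by gene name, without use of a measured value. Earlier results of these data were known when members, lists and tests were chosen. The lists were the other mitochondrial large subunit proteins, small subunit proteins, translation and assembly factors, Puf3 with Tom20 and Cox17, and cytosolic large subunit proteins, from which RPP1, a subunit of RNase P that its name had drawn in, was removed after its annotation was seen. Alternatives were other scalings, pseudocounts, filters and replicate terms, and leaving out each replicate.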

Additional observations from a re-analysis of the deposited data

Results flagged for a closer look

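In 15 of the 204 combinations of member and sample type, 1 of the 4 libraries stood apart, with its gap to the nearest of the others, as a share of the group's range of log2(scaled TPM + 1), above the 95% critical value of the Dixon test for 4 samples. About 10.2 such combinations would be marked by chance at 1 in 20. In 9 the library was high and in 6 low, and none of the differences below was given a cause.

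For MRPL6, Phenol heat-shocked replicate 1 was above the rest at 104 scaled TPM, against 80.5 to 82.2 (gap 0.920 of the range). Phenol unstressed replicate 4 held 104 scaled TPM of MRPL8, where the other libraries held 88.4 to 90.9 (gap 0.835). MRPL9 was higher in Direct-zol heat-shocked replicate 1 (87.6) than in the others (84.4 to 84.9), a gap of 0.857. For MRPL11, Phenol unstressed replicate 3 was below the rest at 47.7 scaled TPM, against 53.9 to 55.2 (gap 0.834 of the range). RNeasy heat-shocked replicate 3 held 96.9 scaled TPM of MRPL16, where the other libraries held 105 to 106 (gap 0.933).

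MRPL19 was higher in Phenol unstressed replicate 1 (198) than in the others (145 to 152), a gap of 0.838. For MRPL19, RNeasy heat-shocked replicate 1 was above the rest at 157 scaled TPM, against 132 to 134 (gap 0.913 of the range). Direct-zol heat-shocked replicate 3 held 66.1 scaled TPM of MRPL20, where the other libraries held 72.5 to 72.8 (gap 0.958). MRPL22 was higher in Direct-zol unstressed replicate 3 (107) than in the others (94.5 to 95.8), a gap of 0.892. For MRPL23, Direct-zol unstressed replicate 4 was below the rest at 65.1 scaled TPM, against 99.2 to 104 (gap 0.900 of the range).

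RNeasy heat-shocked replicate 3 held 83.3 scaled TPM of MRPL28, where the other libraries held 98.7 to 99.6 (gap 0.951). MRPL33 was higher in RNeasy heat-shocked replicate 2 (122) than in the others (81.8 to 85.1), a gap of 0.903. For MRPL35, Direct-zol heat-shocked replicate 1 was above the rest at 61.7 scaled TPM, against 55.0 to 55.9 (gap 0.867 of the range). Direct-zol unstressed replicate 3 held 119 scaled TPM of MRPL37, where the other libraries held 132 to 134 (gap 0.865). MRPL51 was higher in RNeasy heat-shocked replicate 1 (242) than in the others (211 to 214), a gap of 0.896.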

How the results depend on the processing

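With TPM as deposited, 24, 22 and 28 members were called after heat shock with Phenol, RNeasy and Direct-zol (medians 0.38, 0.37 and 0.42), 29 between Phenol and RNeasy in unstressed (median −0.58) and in heat-shocked cells (median −0.59), and 0 between the kits in unstressed cells. Of all 6137 transcripts tested, 3917, 4006 and 4080 were then called after heat shock. Between Phenol and RNeasy 3341 and 3597 were called in unstressed and heat-shocked cells, and between the kits 740 in unstressed cells. The median of the members was then −0.52 for Phenol over Direct-zol in heat-shocked cells and 0.09 and 0.06 for RNeasy over Direct-zol in unstressed and heat-shocked cells. In that setting the direction turned for MRPL8 (−0.27 in place of 0.08) and MRPL13 (−0.35 in place of 0.00) in heat-shocked Phenol over RNeasy, and for MRPL37 after heat shock with Direct-zol (0.01 in place of −0.29). The median of all transcripts tested then moved to 0.19, 0.26 and 0.29 for heat shock, to −0.28, −0.11 and 0.16 for Phenol over RNeasy, Phenol over Direct-zol and RNeasy over Direct-zol in unstressed cells, and to −0.33, −0.21 and 0.12 in heat-shocked cells. With quantile normalization, 14 members and 3922 of all transcripts tested were called after heat shock with RNeasy, against 8 and 3889 in the main fit.

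The biological replicate was part of the fit. With no replicate block, 2 members differed between the kits in unstressed cells in place of 1, and no other count of members moved by over 1.5 times. With a replicate block within treatment, 7 were called after heat shock with Direct-zol, where the count over all transcripts tested was 3484 in place of 3911. A fit of only the sample types compared, with replicate block, called 6 (Phenol) and 7 (Direct-zol) after heat shock, 12 for Phenol over RNeasy and 3 for RNeasy over Direct-zol in unstressed cells, and 14 for Phenol over Direct-zol and 1 for RNeasy over Direct-zol in heat-shocked cells. Over all transcripts tested, that fit called 3111 and 3639, 2034 and 461, and 2008 and 299 in the same order.

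Leaving out 1 replicate gave 6 to 12 calls after heat shock with Phenol, 6 to 8 with RNeasy and 3 to 10 with Direct-zol. It gave 10 to 20 for Phenol over RNeasy, 14 to 21 for Phenol over Direct-zol and 0 to 0 for RNeasy over Direct-zol in unstressed cells, and 9 to 17 and 12 to 20 for Phenol over RNeasy and Direct-zol in heat-shocked cells. Over all transcripts tested, the ranges were 3471 to 3701, 3430 to 3653 and 3434 to 3737 after heat shock. In unstressed cells they were 1989 to 2291, 2098 to 2371 and 89 to 104 in the same order. For Phenol over each kit in heat-shocked cells they were 1939 to 2355 and 1998 to 2216. The cause of these shifts was not tested, beyond the smaller number of libraries. The members' medians for heat shock and for Phenol over each kit kept their direction in every alternative. The median response differences did not: Phenol minus RNeasy was −0.02 as deposited and −0.01 with quantile normalization, Phenol minus Direct-zol −0.06 as deposited, and RNeasy minus Direct-zol 0.01 without replicate 4. Of the values of single members under all alternatives, 3632 kept their direction and side of the threshold, 146 passed it only in the alternative, 197 no longer passed it and 3 turned.

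No counts were used here, so the error from sampling reads could not be separated from that between cultures. MRPL19 and MRPL51 overlap other ORFs. Proteins encoded in the mitochondrial genome were not analysed here.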
